A study of Mus musculus with 9 samples.

Results

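Cyclic nucleotide phosphodiesterases, the enzymes that break down cAMP and cGMP, were followed in RNA of the mouse striatum at E17.5. The genes were chosen by symbol: Pde1a, Pde1b, Pde1c, Pde2a, Pde4a, Pde4b, Pde4d, Pde7b, Pde8b and Pde10a, 10 genes matched through their Ensembl identifiers in GENCODE M21. Of these, 9 had a row among the 44886 genes of the count files, and all 9 passed the filter on low counts that left 16368 genes for testing. The row of Pde2a under its GENCODE M21 identifier was not in the files used here.

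By its label, each library came from the dissected striatum of a single embryo. Of the 9 libraries 3 bear the label Control. Another 3 were labelled as Islet1Cre;Ebf1fl/-, called here the Islet1Cre cKO, and the last 3 as Dlx5/6::Cre;Ebf1fl/-, called the Dlx5/6::Cre cKO. Both cKO carry a floxed and a null allele of Ebf1, a transcription factor of projection neurons of the direct pathway (dSPN). They came from Ebf1+/- males with either Cre mated to Ebf1fl/fl females, so every embryo of these matings inherits at least a floxed allele. The labels do not give the alleles of the controls, and the study's methods name heterozygous embryos as controls. Islet1Cre recombines in dSPN and cholinergic interneurons and Dlx5/6::Cre in all striatal projection neurons (SPN) and interneurons. The strain is labelled C57BL/6 for all 9 embryos, whereas the methods keep the Islet1Cre line on B6D2F1/J. No sex was labelled.

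Phosphodiesterases set how long and how far a cyclic nucleotide signal lasts in a cell. In SPN, dopamine and adenosine receptors raise or lower cAMP, protein kinase A passes the signal on, and phosphodiesterases end it. The families differ in substrate and control: PDE1 enzymes are switched on by calcium and calmodulin, PDE4, PDE7 and PDE8 enzymes act on cAMP, and PDE2 and PDE10 enzymes act on cAMP and cGMP. PDE10A is known as an enzyme of very high abundance in adult SPN of both pathways, and PDE1B and PDE7B are also known from the striatum.

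The stretches of 250 bases before annotated start sites of Pde7b and Pde10a are shown because these members changed together in the comparison with controls. They were taken from RefSeq on GRCm38.p6, 5′ to 3′ on the strand of the gene. The Pde7b stretch, chr10:20548329-20548578 on the minus strand, lies 176.8 kb inside the 5′ end of the gene in GENCODE M21. The Pde10a stretches, chr17:8801495-8801744 and chr17:8849735-8849984 on the plus strand, lie 276.4 and 324.6 kb inside its 5′ end, so all 3 belong to inner start sites, and counts per gene do not tell which start was used.
Pde7b, chr10:20548329-20548578: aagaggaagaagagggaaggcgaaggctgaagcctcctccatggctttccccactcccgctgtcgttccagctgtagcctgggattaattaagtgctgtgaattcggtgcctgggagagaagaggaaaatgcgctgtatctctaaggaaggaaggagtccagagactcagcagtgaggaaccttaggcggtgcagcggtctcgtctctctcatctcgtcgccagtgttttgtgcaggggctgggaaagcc
Pde10a, chr17:8801495-8801744: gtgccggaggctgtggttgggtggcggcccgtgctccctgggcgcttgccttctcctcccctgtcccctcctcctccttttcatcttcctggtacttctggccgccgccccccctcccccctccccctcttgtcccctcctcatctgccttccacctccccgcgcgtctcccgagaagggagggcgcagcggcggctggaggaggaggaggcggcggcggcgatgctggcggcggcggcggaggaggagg
Pde10a, chr17:8849735-8849984: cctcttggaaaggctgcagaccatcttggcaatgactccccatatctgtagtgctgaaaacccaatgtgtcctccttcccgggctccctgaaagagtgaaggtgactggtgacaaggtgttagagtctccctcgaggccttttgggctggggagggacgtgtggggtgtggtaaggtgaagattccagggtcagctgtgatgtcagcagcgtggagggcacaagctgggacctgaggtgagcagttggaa
Their GC content was 55.2%, 72.8% and 56% in this order. Windows of 300 bases, 250 before and 50 after each start, were searched on both strands for the core of the palindromic Ebf site, which is CCCNNGGG with a T before and an A after it, for CCCNNGGG alone, for the cAMP response element TGACGTCA and for the shorter TGACG within it. Among 31 windows of the 10 listed genes, 0 held the core and 6 held CCCNNGGG, against 0.904% and 13.7% of 32851 windows of all genes. TGACGTCA was found in 0 and TGACG in 5 of the 31 windows, against 1.79% and 20.8% of all windows. The windows of Pde7b and Pde10a held none of these letters, which is why no base is in capitals. The windows with CCCNNGGG belonged to Pde1b, Pde4a, Pde4b and Pde8b, and 2 of them, those of Pde8b, overlap and share 1 match.

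The libraries held between 16.5 and 41.5 M counts, and the lowest raw count of any member in any library was 198, for Pde1a. None of the 9 counted members shares exon bases with another counted gene in GENCODE M21. Counts of Ebf1 were not lower in the cKO libraries. They were 7945, 14208 and 9697 normalized counts in controls, 13210 to 15343 in the Islet1Cre cKO and 11774 to 15312 in the Dlx5/6::Cre cKO. Counts per gene add up all exons of a gene, and single exons were not examined, so the deletion itself was not tested here. The genotypes are thus taken from the labels. The study typed the embryos by PCR and reports that immunostaining found no Ebf1 protein in the striatum of either cKO at E17.5. Dlx5/6::Cre cKO replicate 1 stood apart, with 12321 summed normalized counts of 5 genes of dividing progenitors against 2052 to 3581 in the other 8 libraries. Genes of cortical excitatory neurons, 7 in all and 0 of them at 0 in any library, summed to 1013 to 2364 in controls, 958 to 1805 in the Islet1Cre cKO and 2450 to 5787 in the Dlx5/6::Cre cKO. Summed counts of 8 SPN markers overlapped between all groups, at 99188 to 117776, 110609 to 118133 and 96886 to 119883, with the lowest sum in Dlx5/6::Cre cKO replicate 1. RNA of SPN markers was thus present in every library, but a sum over markers cannot show how cleanly the striatum was dissected. Control 3 and Islet1Cre cKO replicate 3 held both Xist, at 12074 and 7270 normalized counts, and counts of 4 Y-linked genes, at 295 and 2450, although each was labelled as 1 embryo. Control 2 held 3800 Y-linked counts and 3.27 of Xist, and the other 6 libraries held Xist with at most 3.62 Y-linked counts. The embryo codes of the Islet1Cre cKO and of controls 1 and 2 start with IE, and those of the Dlx5/6::Cre cKO and of control 3 with D.

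In control striatum Pde10a and Pde1b had the highest levels of the 9 members, and the PDE1 genes Pde1a and Pde1c the lowest. Levels were compared per length, as TMM-scaled CPM (counts scaled to a common library size) per kb of annotated exon. Pde10a stood at 31.5 ± 2.05 CPM per kb (SD, n = 3) and Pde1b at 27.1 ± 3.22, ahead of 88.6% and 86.7% of the genes tested. The ranges of Pde10a and Pde1b overlapped in controls, and Pde10a was the higher of the pair in 4 of 9 libraries. Pde7b followed at 7.35 ± 0.435 CPM per kb, lower than Pde1b by a factor of 3.69 between means and apart from it in all 9 libraries. Pde4a at 6.48 ± 0.664, Pde4b at 5.97 ± 1.63 and Pde4d at 5.22 ± 1.11 overlapped with Pde7b or with each other, neighbour by neighbour. A further gap, by a factor of 2.31, separated Pde4d from Pde8b at 2.26 ± 0.463, with no overlap in controls. Pde1a, at 0.991 to 2.25 in the 3 controls, and Pde1c at 1.21 ± 0.123 came last and their ranges overlapped. Order and gaps depend on the exon length used. With the longest transcript in place of all exons, Pde4d and Pde4b came before Pde4a, and Pde1c passed Pde1a. The first 3 kept their order of means, but Pde10a at 52.1 CPM per kb then stood further from Pde1b at 34.7 in controls. Single libraries were not compared with that length, so the overlap of Pde10a and Pde1b is given for all exons only.

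**Figure D1:**
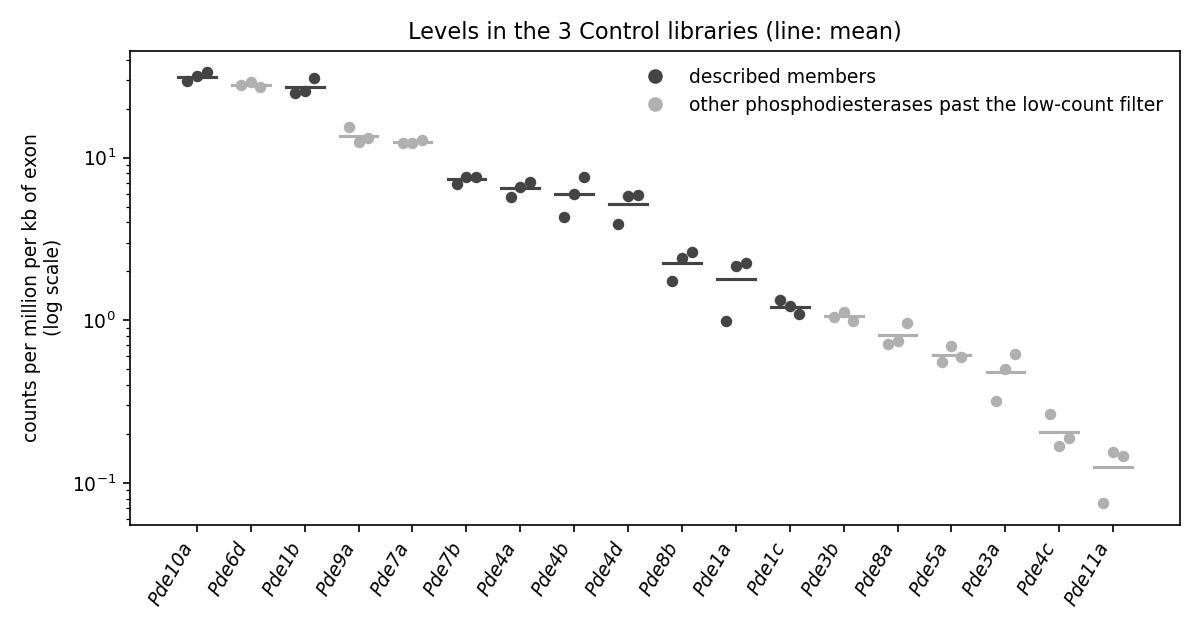
Level of each phosphodiesterase in the 3 Control libraries, as CPM per kb of exon on a log axis, with a point per library and a line at the mean. Pde10a and Pde1b lie between 24.8 and 33.5 CPM per kb together with Pde6d, and Pde11a is lowest of those past the low-count filter.

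Pde10a, whose enzyme acts on both cyclic nucleotides, was lower in all 6 cKO libraries than in any control, as were 4.08% of all genes tested. The gene, ENSMUSG00000023868, is protein-coding and lies at chr17:8525372-8986648 on the plus strand of GRCm38. It gave 11349, 12291 and 12968 normalized counts in controls 1 to 3, counts divided by the library size factors of DESeq2. In the Islet1Cre cKO it gave 8156, 8823 and 10103, and in the Dlx5/6::Cre cKO 5901, 8038 and 8411. The Dlx5/6::Cre cKO fell to 61.1% of the control mean, with a log2 fold change of -0.71 ± 0.13 (SE, adjusted p = 0.0206, edgeR quasi-likelihood test with Benjamini-Hochberg adjustment, n = 3 per group) and a 95% interval of -1.003 to -0.42. The Islet1Cre cKO had 74.0% of the control mean, and its log2 fold change of -0.44 ± 0.13 did not pass the threshold of 0.05 (adjusted p = 0.243, edgeR), although its 95% interval of -0.73 to -0.15 did not reach 0.

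Pde7b, an enzyme that acts on cAMP, followed the same order of groups. The gene, ENSMUSG00000019990, is protein-coding and lies at chr10:20398004-20725078 on the minus strand. Its normalized counts were 2562, 2855 and 2853 in controls, 1798, 1561 and 2241 in the Islet1Cre cKO, and 1196, 1675 and 1628 in the Dlx5/6::Cre cKO. All 6 cKO libraries again lay below all 3 controls, and the library nearest to the controls was Islet1Cre cKO replicate 3, one of the libraries with both Xist and Y-linked counts. The Dlx5/6::Cre cKO fell to 54.4% of controls, by a log2 fold change of -0.88 ± 0.15 (adjusted p = 0.0130, edgeR) with a 95% interval of -1.20 to -0.55. In the Islet1Cre cKO the mean was 67.7% of controls, the log2 fold change -0.57 ± 0.15 (adjusted p = 0.138, edgeR) and the interval -0.90 to -0.24. In bulk tissue, fewer cells of a type and less RNA per cell cannot be told apart.

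**Figure D2:**
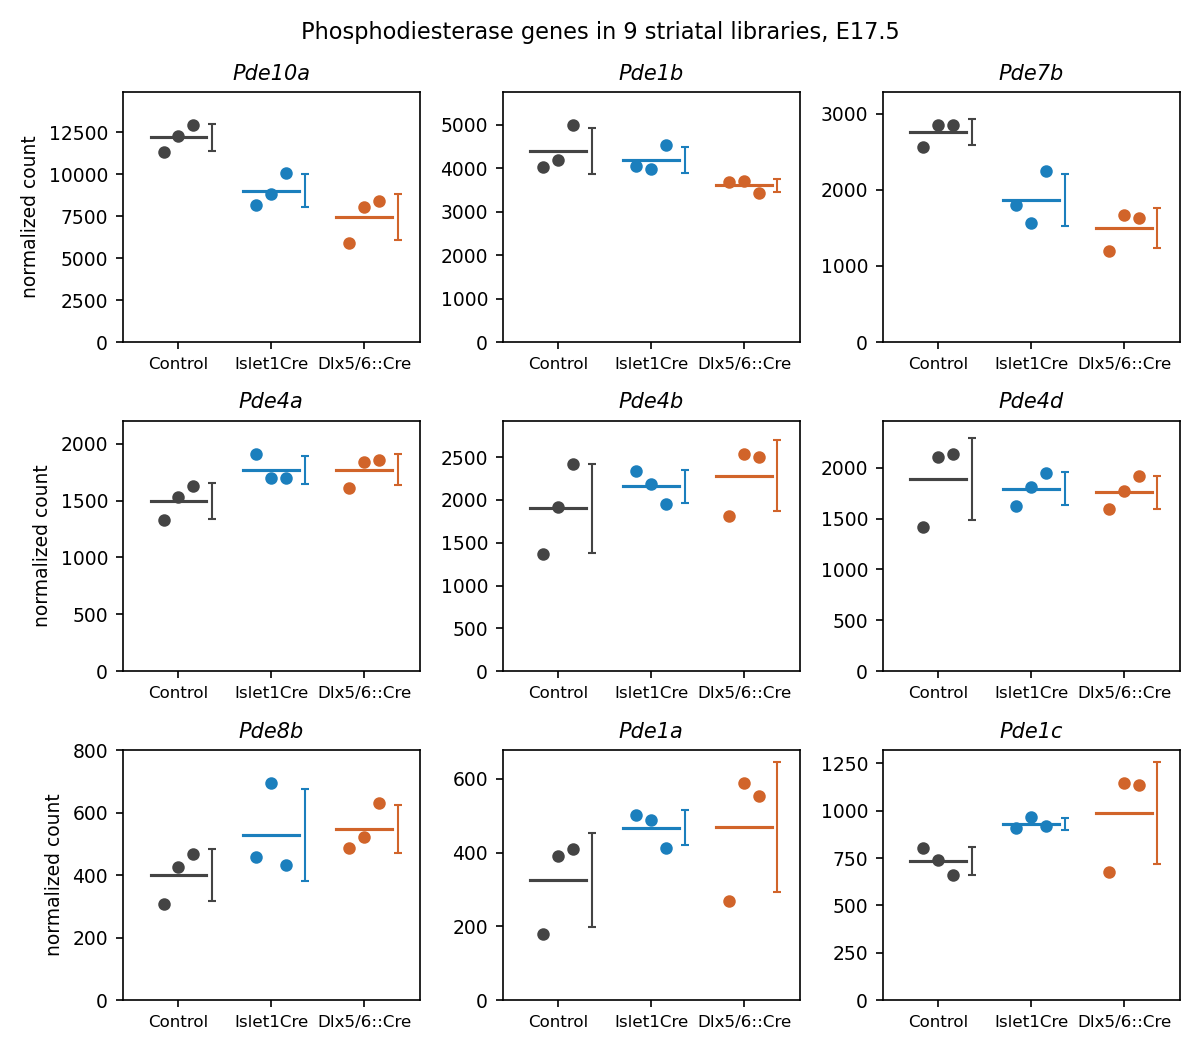
Normalized counts of the 9 counted members, with a point per library, a line at the group mean and a bar of ± 1 SD beside it, on axes that start at 0. For Pde10a and Pde7b all 6 cKO points lie below the 3 Control points, whereas the points of Pde4b and Pde4d overlap between groups.

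The lower counts of Pde10a and Pde7b were present at each omission of a library, but the calls were not, in a comparison where 1.34% of all genes passed as lower. In the Dlx5/6::Cre cKO the log2 fold change ran from -0.81 to -0.57 for Pde10a and from -0.96 to -0.74 for Pde7b when each of the 9 libraries was left out in turn. Pde10a lost its call without control 1 (adjusted p = 0.0544), control 2 (0.0580) or control 3 (0.0889), and Pde7b without control 3 (0.0526). Without Dlx5/6::Cre cKO replicate 1, the library rich in progenitor and cortical genes, the Dlx5/6::Cre cKO was lower by -0.57 on the log2 scale for Pde10a (adjusted p = 0.0118) and by -0.74 for Pde7b (adjusted p = 0.0104). Without that same library both genes also passed in the Islet1Cre cKO, at -0.44 (adjusted p = 0.0303) and -0.57 (adjusted p = 0.0261), since the groups share the estimate of the spread. Without Islet1Cre cKO replicate 3, the Islet1Cre cKO had log2 fold changes of -0.53 for Pde10a (adjusted p = 0.223) and -0.72 for Pde7b (adjusted p = 0.0708).

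The embryo code prefix is tied to the groups, so it was set beside these values. Within prefix IE, the Islet1Cre cKO against controls 1 and 2 gave -0.39 for Pde10a (adjusted p = 0.227) and -0.54 for Pde7b (adjusted p = 0.158) on the log2 scale. Within prefix D, the Dlx5/6::Cre cKO could be set against control 3 alone, and gave -0.80 and -0.93. With the prefix as a term over all 9 libraries the values were also -0.80 (adjusted p = 0.160) and -0.93 (adjusted p = 0.150), since this contrast again rests on control 3, which had the highest count of Pde10a among the controls and both Xist and Y-linked counts. With 1 control library these values have no independent weight. Control 3 alone separates the prefix from the Dlx5/6::Cre genotype, which is too little to tell their parts. Foxp1, a transcription factor of SPN, was the single SPN marker of 8 that passed the threshold in the Dlx5/6::Cre cKO, at -0.53 (adjusted p = 0.0305). There 3 of 8 had an unadjusted p under 0.05 by edgeR, as had 15.5% of all genes: Foxp1 and Rarb were lower and Meis2 higher. In the Islet1Cre cKO 0 of 8 SPN markers passed. There 4 of 8 had an unadjusted p under 0.05, as had 7.93% of all genes: Bcl11b and Foxp1 were lower, Gad2 and Meis2 higher. Of the dSPN markers, Ebf1 itself among them, 0 of 6 passed in either cKO. In the Dlx5/6::Cre cKO their median log2 fold change was -0.38. There 5 of 6, with Drd1 as higher, had an unadjusted p under 0.05 by edgeR, as had 15.5% of all genes. In the Islet1Cre cKO the median was 0.015, with Tac1 at -0.53 and Pdyn at -0.55. There 2 of 6, Drd1 and Ebf1, both higher, had an unadjusted p under 0.05, as had 7.93% of all genes. All Dlx5/6::Cre cKO libraries lay below all controls for Isl1 (-0.40, adjusted p = 0.0817), Tac1 (-1.12, adjusted p = 0.0776) and Pdyn (-0.77, adjusted p = 0.232), whereas Drd1 had a log2 fold change of 0.53 (adjusted p = 0.293). Of the markers of the indirect pathway (iSPN) 0 of 6 passed in either cKO, with a median of 0.20 in the Dlx5/6::Cre cKO and 0 of 6 at an unadjusted p under 0.05. Of the cortical genes 0 of 7 passed in the Dlx5/6::Cre cKO, with a median log2 fold change of 1.03. There 4 of 7, all higher, had an unadjusted p under 0.05 by edgeR, as had 15.5% of all genes. In the Dlx5/6::Cre cKO against the Islet1Cre cKO their median was 1.21 and 0 of 7 passed. There 6 of 7, all higher, had an unadjusted p under 0.05, as had 5.16% of all genes. The part of these marker genes and of their cells in the results was not tested.

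**Figure D3:**
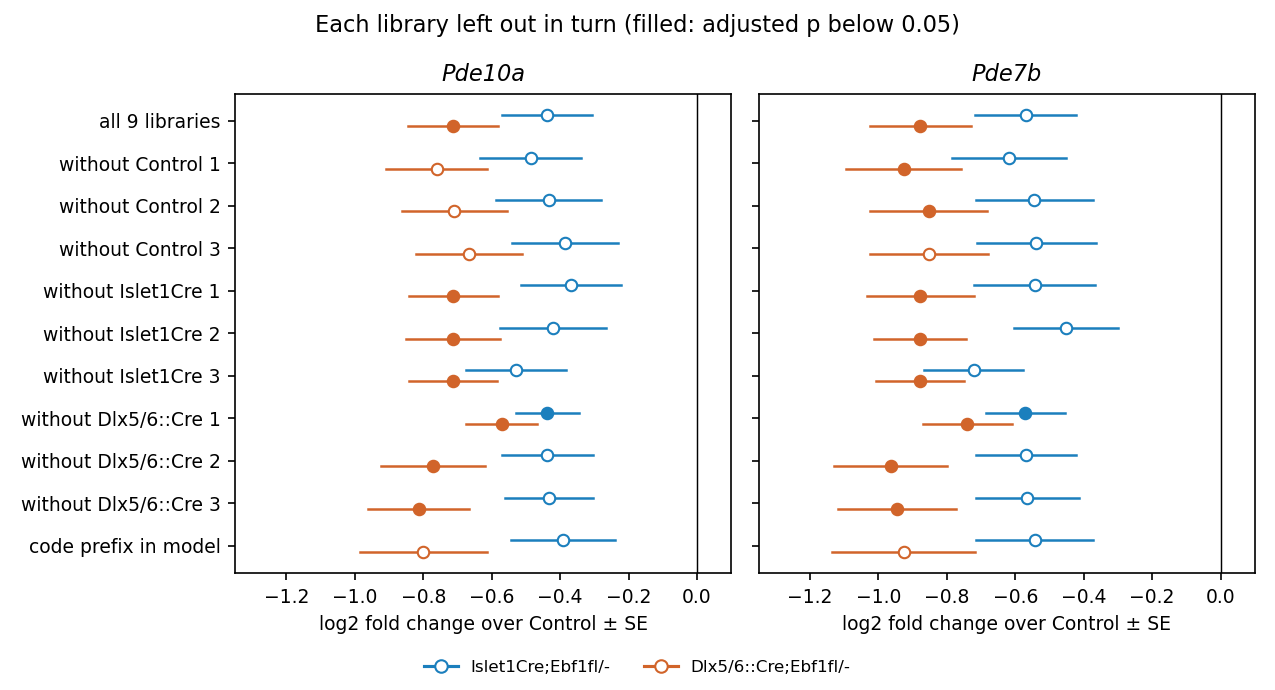
Log2 fold change over Control ± SE of Pde10a (left) and Pde7b (right) for both cKO, with all 9 libraries, with each left out in turn and with the embryo code prefix in the model. All points lie below 0, and filled points, with an adjusted p below 0.05, appear in the Dlx5/6::Cre cKO in 7 and 9 of the 11 settings.

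The PDE1 genes, whose enzymes respond to calcium and calmodulin, did not pass the threshold in either cKO. Pde1b gave 4028, 4183 and 5008 normalized counts in controls, 4046, 3982 and 4544 in the Islet1Cre cKO and 3688, 3704 and 3433 in the Dlx5/6::Cre cKO. The 3 Dlx5/6::Cre cKO libraries were the lowest of the 9, and the Islet1Cre cKO overlapped with controls. The log2 fold changes were -0.29 ± 0.09 in the Dlx5/6::Cre cKO (adjusted p = 0.169, edgeR) and -0.08 ± 0.09 in the Islet1Cre cKO (adjusted p = 0.999), with 95% intervals of -0.50 to -0.08 and -0.28 to 0.13. Pde1c ran from 659 to 805 normalized counts in controls and was above that range in all Islet1Cre cKO libraries, at 908, 966 and 920. In the Dlx5/6::Cre cKO, Pde1c gave 676, 1148 and 1137, with the low value in replicate 1, and its log2 fold change was 0.43 ± 0.17 (adjusted p = 0.272), against 0.34 ± 0.18 in the Islet1Cre cKO (adjusted p = 0.735). Without Dlx5/6::Cre cKO replicate 1 the change of Pde1c was 0.64 and passed (adjusted p = 0.00456). Pde1a varied widely within groups, at 179, 392 and 409 normalized counts in controls, 503, 488 and 413 in the Islet1Cre cKO and 268, 590 and 553 in the Dlx5/6::Cre cKO. Its lowest values came from control 1 and from Dlx5/6::Cre cKO replicate 1. Its log2 fold changes of 0.52 ± 0.33 (adjusted p = 0.874) and 0.53 ± 0.32 (adjusted p = 0.466) had 95% intervals that reached from -0.20 to 1.24 and from -0.19 to 1.24. Without control 1 they were 0.23 and 0.23, and the second was 0.33 without Dlx5/6::Cre cKO replicate 2 and 0.80 without replicate 1.

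The PDE4 genes encode the cAMP-specific enzymes that rolipram blocks, and none of the 3 counted here passed the threshold. Pde4a gave 1326, 1531 and 1631 normalized counts in controls, 1914, 1697 and 1702 in the Islet1Cre cKO and 1614, 1843 and 1861 in the Dlx5/6::Cre cKO. The Islet1Cre cKO lay above all controls and the Dlx5/6::Cre cKO overlapped with them by replicate 1. Both log2 fold changes came to 0.24 ± 0.10, with adjusted p values of 0.512 and 0.250 and with intervals of 0.03 to 0.45 and 0.03 to 0.46. Pde4b ran from 1374 to 2419 normalized counts within the controls alone, a range that held all 3 Islet1Cre cKO libraries (1951 to 2340) and the lowest of the Dlx5/6::Cre cKO (1808, 2541 and 2499). Its log2 fold changes were 0.18 ± 0.19 (adjusted p = 0.993) and 0.26 ± 0.19 (adjusted p = 0.522). Pde4d ran from 1420 to 2138 in controls, 1621 to 1945 in the Islet1Cre cKO and 1590 to 1916 in the Dlx5/6::Cre cKO, so that both cKO fell inside the control range. Its log2 fold changes were -0.08 ± 0.15 (interval -0.40 to 0.24) and -0.10 ± 0.15 (interval -0.42 to 0.22), which bounds a change of Pde4d in these libraries more closely than one of Pde1a.

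Pde8b, another enzyme with a high affinity for cAMP, gave 308, 426 and 467 normalized counts in controls, 458, 697 and 431 in the Islet1Cre cKO and 487, 524 and 633 in the Dlx5/6::Cre cKO. The Dlx5/6::Cre cKO lay above all controls, and in the Islet1Cre cKO replicate 2 was the highest of the 9 libraries. The log2 fold changes were 0.41 ± 0.21 (adjusted p = 0.730) and 0.45 ± 0.21 (adjusted p = 0.325), and neither passed. The first was 0.15 without Islet1Cre cKO replicate 2 and 0.25 without control 1, and the second 0.30 without control 1.

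Pde2a, whose enzyme is stimulated by cGMP, has no row under its GENCODE M21 identifier. A row was present for ENSMUSG00000030653, which GENCODE M21 names Gm45837, at chr7:101410886-101512819 on the same strand, which shares 3955 exon bases with Pde2a, 64.3% of the exon bases of Pde2a and 95.6% of its own. That row gave 8816, 7427 and 8616 normalized counts in controls, 8088, 7819 and 7825 in the Islet1Cre cKO and 6415, 7566 and 8342 in the Dlx5/6::Cre cKO. The groups overlapped, with log2 fold changes of -0.07 (adjusted p = 0.999) and -0.16 (adjusted p = 0.495). The authors counted on the older annotation Ensembl 81, in which this identifier may have been that of Pde2a itself. Its name there was not checked, so the row may hold the counts of Pde2a, and it was neither counted among the members nor drawn with their levels. Per kb of its exons that row stood at 66.4 ± 6.15 CPM in controls (SD, n = 3), above Pde10a at 31.5.

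Counted over the members, 0 of 9 passed the threshold in the Islet1Cre cKO, where 0.971% of 16368 genes passed, and 3 of 9 had an unadjusted p under 0.05, as had 7.93% of all genes. In the Dlx5/6::Cre cKO 2 of 9, Pde7b and Pde10a, passed as lower and 0 as higher, where 1.34% of all genes passed as lower, 1.05% as higher and 2.39% in either direction, and 5 of 9 had an unadjusted p under 0.05, as had 15.5% of all genes. All 6 cKO libraries lay below all 3 controls for 2 of 9 members and for 4.08% of all genes. In the Islet1Cre cKO the libraries lay below all controls for Pde7b and Pde10a and above all for Pde1a, Pde1c and Pde4a, against 7.28% and 7.83% of all genes. In the Dlx5/6::Cre cKO they lay below for Pde1b, Pde7b and Pde10a and above for Pde8b, against 11.3% and 9.63%. The median log2 fold change of the 9 members was 0.18 in the Islet1Cre cKO and 0.24 in the Dlx5/6::Cre cKO, beside medians of -0.0016 and 0.011 over all genes tested, so the members did not share a direction: 5 of them, Pde1a, Pde1c, Pde4a, Pde4b and Pde8b, had positive values in both cKO, although Pde4b turned negative in the Dlx5/6::Cre cKO with the prefix in the model (-0.083). Both comparisons use the same 3 controls. The members were chosen with earlier results of these data known, so their counts beside the shares of all genes are no test of the list.

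**Figure D4:**
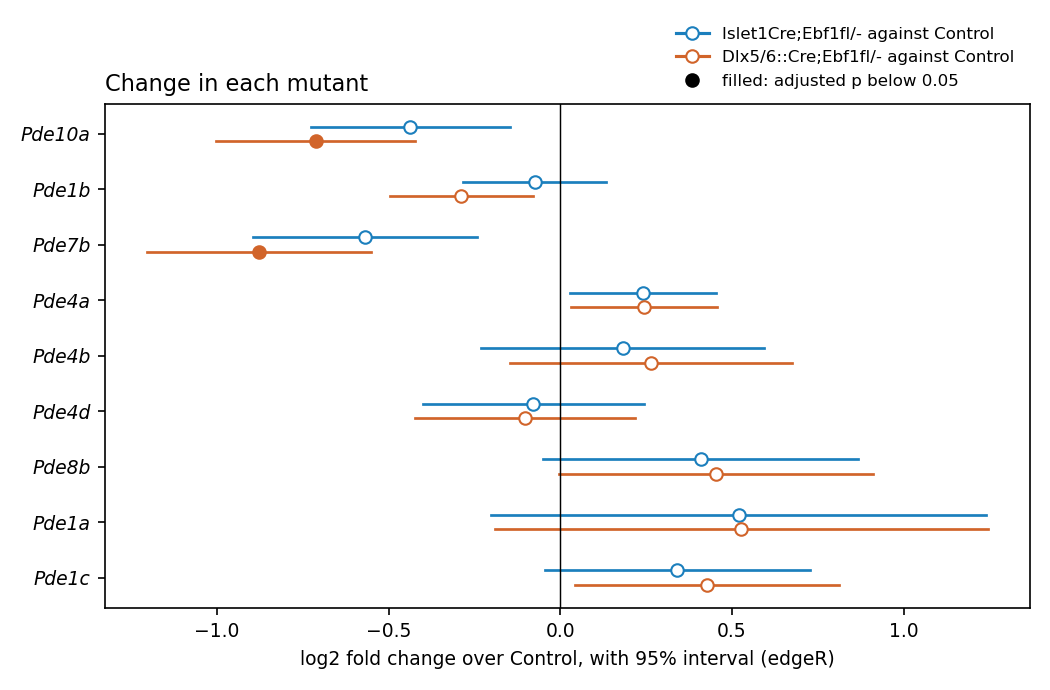
Log2 fold change over Control with its 95% interval for each counted member in both cKO, ordered by control level. The filled points, with an adjusted p below 0.05, are Pde10a and Pde7b in the Dlx5/6::Cre cKO at -0.71 and -0.88, and the widest intervals are those of Pde1a.

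The cKO were also compared with each other, as the direct test of a difference between them. Of the 9 members 0 passed, as did 0% of all 16368 genes by edgeR. At an unadjusted p under 0.05 there were 844 genes, 1 of them a member, Pde1b, and DESeq2 called 18 genes, 0 of them members. For Pde10a the Dlx5/6::Cre cKO minus the Islet1Cre cKO was -0.28 on the log2 scale with a 95% interval of -0.56 to 0.01 (adjusted p = 0.868), and for Pde7b it was -0.31 with an interval of -0.64 to 0.02 (adjusted p = 0.868). The libraries of the cKO overlapped for both genes. Pde1b had a difference of -0.21 with an interval of -0.42 to -0.0042 (adjusted p = 0.868), and its Dlx5/6::Cre cKO libraries lay below all Islet1Cre cKO libraries, as was the case for 5.39% of all genes. A call for Pde10a and Pde7b in one cKO alone is thus not shown to be a difference between the cKO.

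The make-up of the group was read from shares of the summed level per kb. Pde10a made up 37.1, 35.5 and 34.0% of the sum over the 9 members in controls, 27.1, 28.9 and 30.6% in the Islet1Cre cKO and 24.0, 27.0 and 28.2% in the Dlx5/6::Cre cKO. Every cKO library gave Pde10a a smaller share than every control. Pde1b, the next member by level, kept a share of 28.8 to 31.4% in controls and ranged from 27.5 to 35.7% in the cKO libraries. By this length of all exons it came before Pde10a in 5 of 6 cKO libraries. That order depends on the length used. With the longest transcript the control means were 52.1 CPM per kb for Pde10a and 34.7 for Pde1b, and cKO libraries were not ranked that way. The shares of Pde4a were 7.18 to 7.43% in controls, 8.67 to 10.7% in the Islet1Cre cKO and 10.4 to 11.0% in the Dlx5/6::Cre cKO, without overlap with controls. The summed level itself was 79.1 to 98.4 CPM per kb in controls, 77.4 to 85.3 in the Islet1Cre cKO and 63.7 to 77.0 in the Dlx5/6::Cre cKO. A share within a sum moves when any member moves, so a larger share of Pde4a is not by itself a rise of Pde4a.

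**Figure D5:**
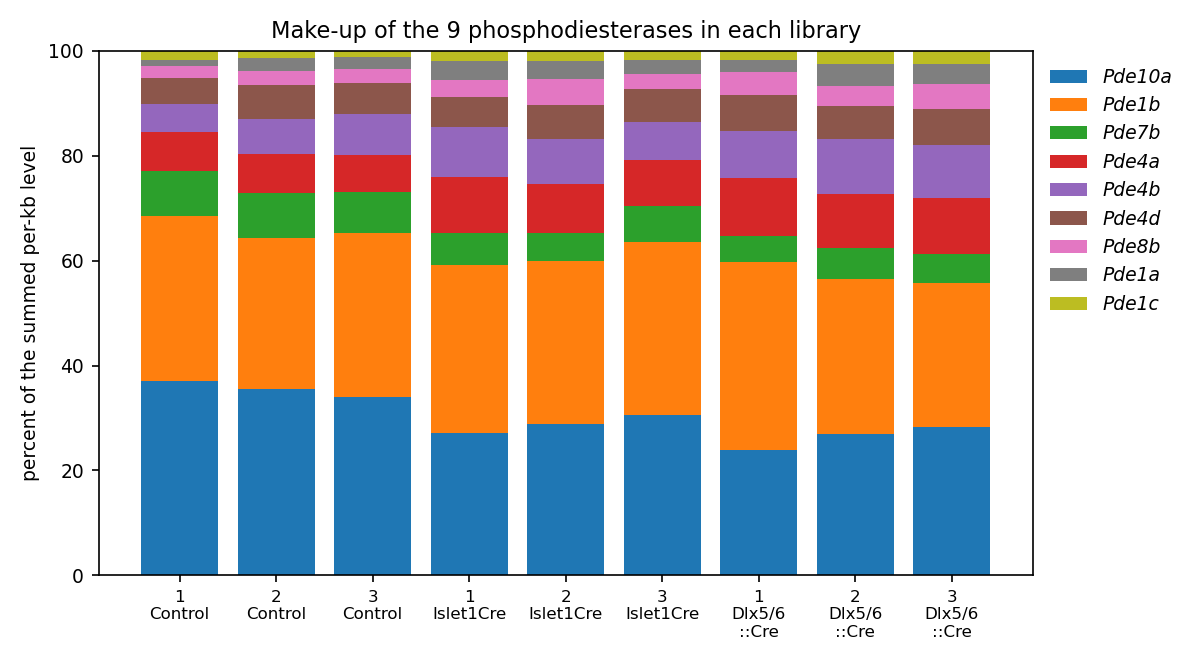
Percent of the summed level per kb contributed by each of the 9 counted members in each of the 9 libraries, stacked to 100. The lowest block, Pde10a, is 34.0 to 37.1% in controls and 24.0 to 30.6% in the cKO libraries.

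Genes whose pattern over the 9 libraries lay nearest to Pde10a and Pde7b were found among 12050 other genes with a mean of at least 100 normalized counts, by the root mean square difference of log2 normalized counts after centring each gene. Nearest to Pde10a were Klhl13 at 0.0812, Lingo2 at 0.0857, Coro2a at 0.0873, Gnb4 at 0.0966 and Stra6 at 0.101 log2 units. Nearest to Pde7b were Chsy3 at 0.0842, Tgfa at 0.0919, Klhl13 at 0.0937, Prkch at 0.103 and Cdh9 at 0.103 log2 units. Klhl13 stood in both lists. For scale, the SD of Pde10a itself over the 9 libraries was 0.358 and that of Pde7b 0.437 log2 units. Gnb4 encodes a beta subunit of G proteins and Prkch a member of the protein kinase C family.

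The remaining phosphodiesterases of the superfamily were counted for comparison: 14 were listed, 9 passed the filter on low counts and 0 of 9 passed the threshold in either cKO. Of all genes tested, 0.971% passed in the Islet1Cre cKO and 2.39% in the Dlx5/6::Cre cKO. Per kb, Pde6d, which encodes a carrier of prenylated proteins (28.1 CPM per kb in controls), Pde9a (13.7) and Pde7a (12.5) stood between Pde10a and Pde7b, and Pde3b, Pde8a, Pde5a, Pde3a, Pde4c and Pde11a below Pde1c. Pde7a, the other gene of the PDE7 family, had log2 fold changes of -0.24 (adjusted p = 0.282) and -0.17 (adjusted p = 0.307), where Pde7b had -0.57 and -0.88. For Pde7a too, all 6 cKO libraries lay below all 3 controls, as for 4.08% of all genes tested. Pde7a gave 2855, 2885 and 3003 normalized counts in controls, 2335 to 2562 in the Islet1Cre cKO and 2427 to 2813 in the Dlx5/6::Cre cKO. Pde4c, the lowest PDE4 gene, gave 44.3, 28.6 and 31.7 normalized counts in controls and 14.03, 12.7 and 19.6 in the Dlx5/6::Cre cKO, with a log2 fold change of -1.16 (adjusted p = 0.0806). Pde6a, Pde6b, Pde6c, Pde6g and Pde6h, genes of the photoreceptor enzyme, did not pass the filter on low counts.

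Over all genes tested, 0.971% passed the threshold in the Islet1Cre cKO and 2.39% in the Dlx5/6::Cre cKO. On the side of synthesis, 1 of 9 tested adenylyl cyclases passed the threshold and 0 of 8 guanylyl cyclases and natriuretic peptide receptors did. That gene, Adcy8, a cyclase stimulated by calcium, was higher in both cKO, at 36.2, 53.1 and 39.4 normalized counts in controls against 127 to 242 and 182 to 288, with log2 fold changes of 2.23 (adjusted p = 0.00904) and 2.43 (adjusted p = 0.00245). Among partners and anchors of phosphodiesterases 1 of 10 passed in the Dlx5/6::Cre cKO. It was Akap12, which anchors protein kinase A, at 1376, 1530 and 1762 normalized counts in controls, 985, 901 and 1210 in the Islet1Cre cKO and 943, 901 and 901 in the Dlx5/6::Cre cKO, with log2 fold changes of -0.60 (adjusted p = 0.0537) and -0.77 (adjusted p = 0.0103). Of 16 cyclic nucleotide effectors, 7 kinase inhibitors and phosphatase regulators and 8 G protein genes, 0 passed in either cKO.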

How the data were processed

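RNA of 9 E17.5 mouse striata was measured, 3 per labelled group. The authors deposited counts, whole reads per Ensembl 81 gene without normalization. Per the study's methods and labels, polyadenylated RNA (TruSeq Stranded, 400 ng, 75 bp reads) was mapped to mm10 with STAR 2.4.0k, reads that matched several positions were removed, and the rest were counted with HTSeq 0.5.3, whose strand setting is not given in the sources used here; removing such reads lowers genes with near-identical copies. Members and gene lists were chosen with earlier results of these data known. Every listed member is named, and list genes are named if they passed.

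Here edgeR 4.0.16 (R 4.3.3; filterByExpr, minimum count 10; TMM; quasi-likelihood test, Benjamini-Hochberg over 16368 genes, threshold 0.05) was fitted to all 9 libraries. SE is the log2 fold change over the square root of F, and 95% intervals use the t distribution. Normalized counts use size factors of DESeq2 1.42.0. Symbols came from GENCODE M21 for 44133 of 44886 identifiers, promoters from RefSeq. In simulated data for the Dlx5/6::Cre cKO comparison (16368 genes, 200 changed), edgeR recovered 80% of the genes changed by 1 and 98% of those changed by 2 log2 units, with 5.32% false calls. The largest change of a member in this comparison was -0.88, smaller than the sizes simulated, and recovery at smaller sizes was not tested. With 3 embryos a group, precision is limited by their spread, and depth (16.5 to 41.5 M counts) least precise in Islet1Cre cKO replicate 3. Alternatives were DESeq2, its size factors, other filters, a replicate block, the embryo code prefix, fewer libraries and each library left out.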

Additional observations from a re-analysis of the deposited data

How the results depend on the processing

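The Dlx5/6::Cre cKO had 2 members past the threshold, and this count was 0 with the embryo code prefix in the model or within the prefix, fits that rest on control 3 alone and could hardly pass (within the prefix 2 genes of all tested did), 1 with only the 6 libraries compared (Pde7b, adjusted p = 0.0248, but not Pde10a, 0.0582), and 0 to 3 with a library left out (3 without Dlx5/6::Cre cKO replicate 1, which added Pde1c). In the Islet1Cre cKO the count of 0 became 1, Pde7b, by DESeq2 (adjusted p = 0.0193) and without a filter on low counts (adjusted p = 0.0167), and ran from 0 to 2 with a library left out. Between the cKO it was 0 throughout. The log2 fold changes of Pde7b and Pde10a kept their sign against controls under every alternative run.

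Small differences changed sign. Against controls, with the prefix in the model and within it, the Islet1Cre cKO gave 0.026 and 0.032 for Pde1b and 0.019 and 0.025 for Pde4d, and the Dlx5/6::Cre cKO -0.083 and -0.086 for Pde4b. Between the cKO, Pde4a was -0.00077 without a filter, -0.0030 with a stricter one, -0.0039 with only 6 libraries and -0.19 with the prefix, where Pde1a was -0.51, Pde4b -0.48 and Pde8b -0.30. With a library left out, the Islet1Cre cKO ran from -0.14 to 0.032 for Pde1b, -0.0042 to 0.40 for Pde4b and -0.25 to 0.025 for Pde4d. Between the cKO the ranges were -0.19 to 0.28 for Pde1a, -0.037 to 0.29 for Pde1c, -0.042 to 0.066 for Pde4a, -0.0022 to 0.22 for Pde4b, -0.10 to 0.043 for Pde4d and -0.084 to 0.30 for Pde8b. The cause was not tested.

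Same-numbered libraries did not deviate together (mean r = -0.02, range -0.22 to 0.17 over 9 pairs, 2 of them over 0.1), so the numbers were not taken as pairs. A replicate block left the counts of members at 0, 2 and 0, changed the genes called from 159 to 143 and from 392 to 363, and gave -0.10 for Pde1a and -0.00082 for Pde4a between the cKO.

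Over all genes, the 159 calls in the Islet1Cre cKO became 395 by DESeq2, 311 without a filter, 61 with the prefix and 259 with only 6 libraries, and ran from 15 (without Islet1Cre cKO replicate 2) to 397 (without Dlx5/6::Cre cKO replicate 1). The 392 calls in the Dlx5/6::Cre cKO became 860, 708, 32 and 181, were 2 within the prefix, and ran from 143 (without control 1) to 613 (without Dlx5/6::Cre cKO replicate 1).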
